A study of Mus musculus with 11 samples.

Results

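The full layout of the experiment is described here, in which cell line and growth state were crossed, and it used all 11 of the 11 arrays. Each array was placed by its title, as bFGF-JB6 or RT101 cells and as monolayer or colonies. The bFGF-JB6 line stands for mouse JB6 clone 41-5A given bFGF (basic fibroblast growth factor), with 3 monolayer and 3 colony arrays. RT101 cells, a tumour variant of JB6 that received no treatment, gave 2 monolayer and 3 colony arrays. Colonies of both were taken from soft agar on day 7, and bFGF in the agar was at 10 ng/ml. For bFGF-JB6 monolayers the labels name neither the amount of bFGF nor how long it was applied. There were no arrays of untreated parental JB6 cells, so cell line and bFGF treatment cannot be told apart, and "line" below stands for both. Nothing states that replicates were separate cultures, so p-values measure the spread between arrays, which may be technical.

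Growth in agar tests whether cells can divide without attachment, a trait that normal epithelial cells and fibroblasts lack and that transformed cells acquire. Detached cells lose the signals that integrins and a stretched actin cytoskeleton pass to ERK, to YAP and TEAD and to the cell cycle, and in colonies they deposit matrix and meet one another in 3 dimensions. JB6 cells come from mouse epidermis and are a standard model of this step, which a growth factor can trigger reversibly, while RT101 cells take it without one. The study asked which expression changes both routes share, and the crossed layout addresses this with separate quantities. The average colony effect is the mean of the colony-minus-monolayer change in bFGF-JB6 and that in RT101. The interaction is the RT101 change minus the bFGF-JB6 change, and it equals the line gap (RT101 minus bFGF-JB6) in colonies minus the gap in monolayers. All values are on the log2 scale, where 1 unit is 2-fold, and a gene was called at a limma adjusted p under 0.05 over 12393 genes.

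The arrays of a group correlated at 0.992 to 0.998 across genes. The 3' minus 5' signal of the Gapdh control was raised on bFGF-JB6 monolayer replicate 1 (0.194) and bFGF-JB6 colonies replicate 3 (0.354), against -0.0826 to -0.0144 on the other 9 arrays. Against the epidermal origin, defining epithelial markers lay at the bottom of the scale in every group. Cdh1, E-cadherin, had group means of 2.39 to 2.45, and 10 or 11 of the 21 measured keratin and epidermal genes lay below the lower quartile of all signals (4.06) in each group. The 19 mesenchymal markers averaged 7.56 to 8.44 per array, with Vim, vimentin, at 12.87 to 13.16. Of the keratin and epidermal genes 2 rose and 1 fell on average. Among the mesenchymal markers 8 rose and 4 fell, where 18.1% and 18.4% of all genes did so. The cells are therefore called by their line names below.

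Line was the largest source of variation, state the next and their interaction the smallest, but the interaction was not small. Of the mean squares of these 3 terms over genes, line took 66.2%, state 20.5% and the interaction 13.3%. The leading principal components carried 62.7%, 17.1% and 12.2% of the variance, and in order they separated the lines, the states, and the growth states in opposite directions in each line. For the average colony effect 2237 genes rose (18.1% of genes tested) and 2280 fell (18.4%). For the interaction 1856 genes were positive (15%) and 1574 negative (12.7%). Of the 4517 genes with an average effect, 2171 also had an interaction and 2346 did not, and a further 1259 genes had an interaction alone. In these bulk samples fewer cells of a kind and less RNA per cell cannot be told apart. The interaction was under 1 in size for 2462 of its 3430 genes and at least 1 for 968.

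**Figure D1:**
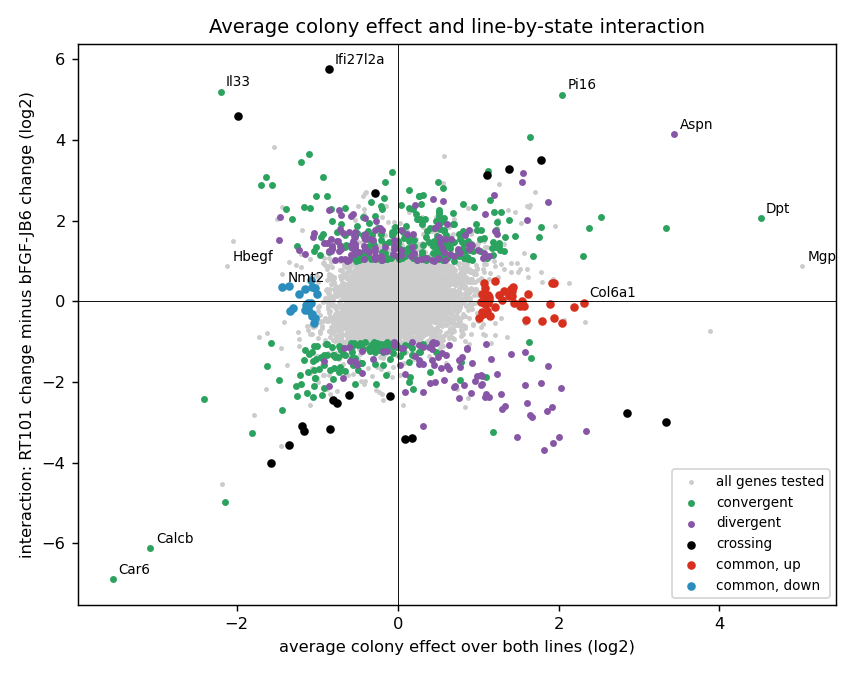
Average colony effect over both lines (horizontal axis, log2) against the line-by-state interaction (vertical axis, RT101 change minus bFGF-JB6 change, log2), 1 point per gene for 12393 genes. The 41 common genes that rose and the 20 that fell lie in a narrow band at an interaction near 0, between -0.54 and 0.518, while convergent, divergent and crossing genes lie above and below it.

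A change shared by both routes was asked for more strictly than by a missing interaction call. A common colony gene had an average effect of at least 1 in size, no called interaction, and a 95% interval of the interaction inside -1 to 1. Of 301 genes with an average effect of at least 1, 234 had a called interaction, and in 198 of these both lines still moved the same way. Of the other 67, 61 met the interval bound and 6 did not. Of these 61 common genes, 41 rose (0.331% of genes tested) and 20 fell (0.161%). In all 61, every colony array lay beyond every monolayer array in both lines. The RT101 change was 0.612 to 1.68 times the bFGF-JB6 change, with a median ratio of 1. The interval of the interaction, before adjustment over genes, left out 0 in 16 of the 61, so these held a small difference between the lines that the adjusted test did not call.

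The largest common increases were those of a matrix gene and of a gene whose product cuts matrix. Col6a1, a chain of the microfibrillar collagen VI, had log2 signals of 7.97, 7.7 and 7.79 in the monolayers and 10.21, 10.12 and 10.12 in the colonies of bFGF-JB6, against 7.81 and 7.77 and then 10.14, 10.11 and 10.02 in RT101. The lines thus started at the same level and ended at the same level, and no colony array overlapped a monolayer array. The average effect was 2.31 (4.97-fold, SE 0.065, limma adjusted p = 2.7e-11), and the interaction was -0.031 with an interval of -0.31 to 0.25 (adjusted p = 0.897). Mmp2, a gelatinase that cuts basement membrane collagen, read 9.44, 9.21 and 9.22 in bFGF-JB6 monolayers, 11.45, 11.54 and 11.66 in bFGF-JB6 colonies, 5.04 and 4.53 in RT101 monolayers and 6.94, 6.93 and 6.88 in RT101 colonies. Here the lines kept very different levels: RT101 colonies stayed below bFGF-JB6 monolayers on every array. Both lines nonetheless rose by nearly the same step, 2.26 and 2.13 (average SE 0.09, adjusted p = 9.08e-10, interaction -0.13, interval -0.52 to 0.26). Antxr1, a collagen-binding receptor better known for anthrax toxin, rose by 1.54 and 1.54 (interaction 0.0052, interval -0.38 to 0.4) although its level in RT101 was lower by 2.49 in monolayers and by 2.48 in colonies.

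Other common increases covered secreted, membrane and clock genes. Lbp, which binds bacterial lipopolysaccharide in the acute phase, rose by 2.05 on average (SE 0.1, adjusted p = 5.94e-09) and the complement protease gene C1ra by 1.57 (SE 0.08, adjusted p = 6.85e-09). Vegfd, a ligand of lymphatic vessel growth, rose by 1.8, the matrilin gene Matn2 by 1.94 and Pmp22, a myelin and growth-arrest protein, by 1.52. Dbp, a clock-controlled transcription factor gene, had signals of 4.29, 4.09 and 4.35 in the monolayers and 6.18, 5.91 and 6.45 in the colonies of bFGF-JB6, against 5.55 and 5.65 and then 7.57, 7.48 and 7.34 in RT101. It rose by 1.94 and 1.86, while RT101 stayed higher by 1.36 in monolayers and 1.28 in colonies. Its relative Hlf, named here after its values were seen, rose by 1.39 on average with an interaction of 0.125. Capn6 (1.95), Mrgprf (1.92), Rab3il1 (1.62), the annexin gene Anxa8 (1.6), B3gnt9 (1.44) and AI413582 (1.43) completed the largest 15. The 41 increases had a median of 1.29.

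**Figure D2:**
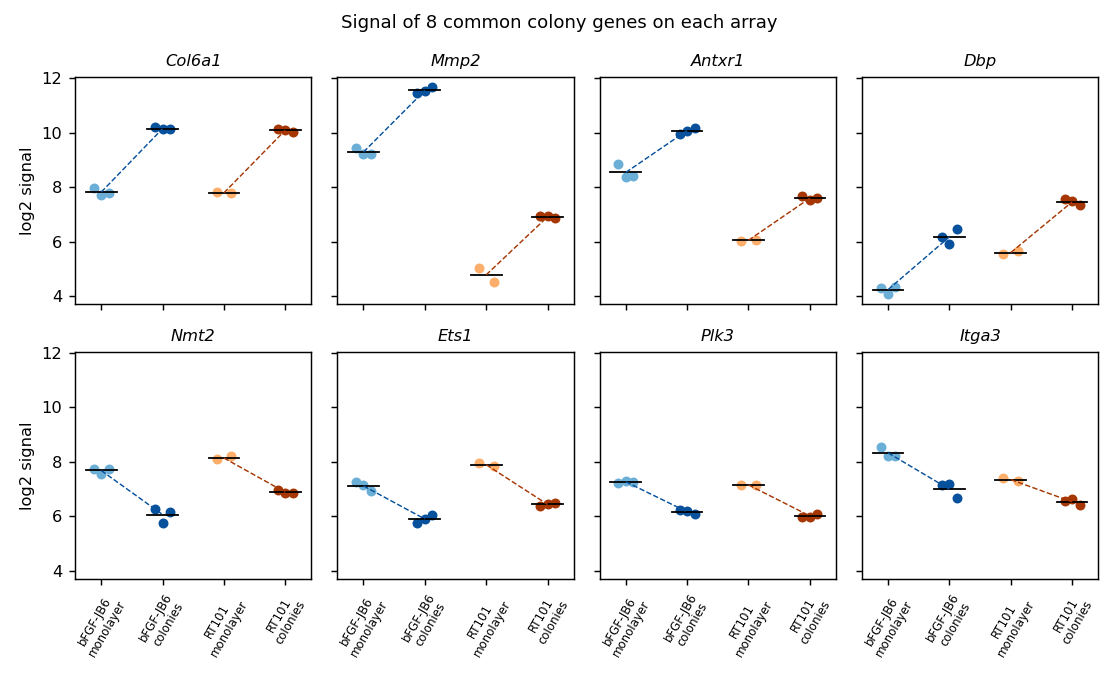
Log2 signal of 8 common colony genes on each of the 11 arrays, with 1 point per array, a bar at each group mean and a dashed line from monolayer to colonies within a line. The top row shows genes that rose and the bottom row genes that fell. The dashed lines run nearly parallel, as for Plk3, where the lines overlap, and for Mmp2, where they stay apart in level.

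The common decreases held genes of division and of transcriptional control. Trip13, an ATPase of the spindle checkpoint, had signals of 7.87, 7.84 and 7.62 in bFGF-JB6 monolayers, 6.13, 6.05 and 6.53 in bFGF-JB6 colonies, 9.22 and 9.22 in RT101 monolayers and 8.05, 8.04 and 8.08 in RT101 colonies. It fell by 1.54 in bFGF-JB6 and by 1.16 in RT101 (average -1.35, SE 0.087, adjusted p = 5.94e-08). Ccne2, cyclin E2, changed by -1.25 and -0.89, and Ect2, which is needed for cytokinesis, by -1.04 and -1.26. The transcription factor gene Ets1 stood at 7.27, 7.15 and 6.94 in the monolayers and 5.76, 5.9 and 6.05 in the colonies of bFGF-JB6, against 7.94 and 7.85 and then 6.37, 6.45 and 6.5 in RT101. Its average effect was -1.34 (SE 0.076, adjusted p = 1.81e-08) with an interaction of -0.24. Tead4, one of the DNA-binding partners of YAP, changed by -1.02 and -1.22. Plk3, a stress-responsive kinase gene, had the narrowest interval of the named decreases, with -1.1 and -1.14 and an interaction between -0.28 and 0.21. Nmt2, which attaches myristate to proteins, had the largest average decrease of the common genes (-1.44, SE 0.087, adjusted p = 3.04e-08).

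Attachment genes were on both sides. Itgb5, a vitronectin receptor chain, rose by 1.29 and 1.55, and Itga3, a laminin receptor chain, fell by 1.34 and 0.82, as did Dst, which links hemidesmosomes to the cytoskeleton, by 0.91 and 1.22. Prkg2, a kinase activated by cyclic GMP, fell by 1.3 on average, the histone methyltransferase gene Suv39h2 by 1.23, Zfp52 by 1.16 and Gdap10 by 1.11. Slfn3, which has close relatives, and Hars, a histidyl-tRNA synthetase gene, fell by 1.07 and 1.14. For Hars, bFGF-JB6 colonies read 7.83, 7.91 and 9.3, and the highest of these was the array with raised 3' signal. Without it the Hars average was -1.38 (adjusted p = 3.03e-08) and the interaction went from -0.082 to 0.4 (adjusted p = 0.0651). The 20 decreases had a median of -1.11.

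The common set rested on the interaction not being called, and some of its members were close to that line. Leaving out any 1 array kept 34 to 40 of the 41 increases and 14 to 18 of the 20 decreases. Averaging the probe sets of a gene kept 28 and 8, and leaving out genes under the median level kept 28 and 12. Some other probe sets of Antxr1, Rab3il1, Dst and Suv39h2 had no called average effect. Another probe set of Zfp52 had a called interaction of 0.89 and another of Vegfd one of -1.27 (limma adjusted p = 0.0174 and 0.0171). Omission of bFGF-JB6 monolayer replicate 1 or 2, of any bFGF-JB6 colony array or of RT101 monolayer replicate 1 gave an interaction call to 1 or more of Lbp, Vegfd, Capn6, Mrgprf, Anxa8, Trip13, Zfp52 and Itga3, with adjusted p between 0.00725 (Trip13, without bFGF-JB6 colonies replicate 3) and 0.0473 (Itga3, without bFGF-JB6 colonies replicate 1). The replicate number as a block gave a call to Itga3 (adjusted p = 0.0147) and Anxa8 (adjusted p = 0.0426). With an interval bound of 0.5 in place of 1, 16 increases and 1 decrease remained.

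The largest average increases of all belonged to genes whose change differed in size between the lines. Mgp, a matrix protein that inhibits calcification, averaged 5.03 (SE 0.12, adjusted p = 4.98e-12), with an interaction of 0.87 (adjusted p = 0.0154) that was no longer called without RT101 monolayer replicate 2 (adjusted p = 0.0883). RT101 monolayer signals of Mgp were 4.13 and 3.38, on either side of the lower quartile. Dpt, dermatopontin, averaged 4.51 with an interaction of 2.06 (SE 0.15, adjusted p = 2.71e-07). The acute-phase gene Saa3 averaged 3.88 with an interaction of -0.73 (SE 0.12, adjusted p = 0.000439), and the glutathione transferase gene Gstm1, which has close relatives, averaged 2.33 with -0.52. The Gstm1 interaction was no longer called when its probe sets were averaged (-0.25, limma adjusted p = 0.158). Among decreases Hbegf, an EGF receptor ligand, had the average -2.12 and the interaction 0.87 (SE 0.15, adjusted p = 0.0007). Bhlhe40, a clock and hypoxia repressor, averaged 1.79, and the sestrin gene Sesn1 1.53, both with the larger rise in RT101.

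The levels of the lines lay somewhat nearer to each other in agar than on plastic. Over all genes the root mean square gap, with noise subtracted, was 0.759 in monolayers and 0.687 in colonies. Pairs of arrays from different lines differed by 0.776 to 0.796 (6 pairs) in monolayers and by 0.705 to 0.734 (9 pairs) in colonies, so the ranges did not overlap. The gap was called for 5504 genes (44.4%) in monolayers and 5372 (43.3%) in colonies, and reached 1 in size for 1518 and 1247 genes. This difference is a description of these arrays, since pairs share arrays and genes are not independent.

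Convergence was judged gene by gene from the group means: an interaction had to be called, a monolayer gap had to be called, and the gap had to shrink by at least 1. Divergence needed a called interaction, a called colony gap and a gap that grew by at least 1. Genes whose gap was called in both states with opposite signs entered neither class. Of genes tested, 364 converged (2.94%) and 210 diverged (1.69%). In convergent genes the median size of the gap went from 1.92 to 0.317, and 190 of them still had a called gap in colonies. bFGF-JB6 was the higher line in monolayers for 242 and RT101 for 122. The routes to a smaller gap differed. The lines moved in opposite directions in 135 genes, RT101 alone moved in 131 (66 up, 65 down), bFGF-JB6 alone in 48 (40 down, 8 up), and both moved the same way by unequal steps in 50. On the linear scale 353 of the 364 also had the smaller gap in colonies, and Dpt and Ccl8 were among the exceptions.

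**Figure D3:**
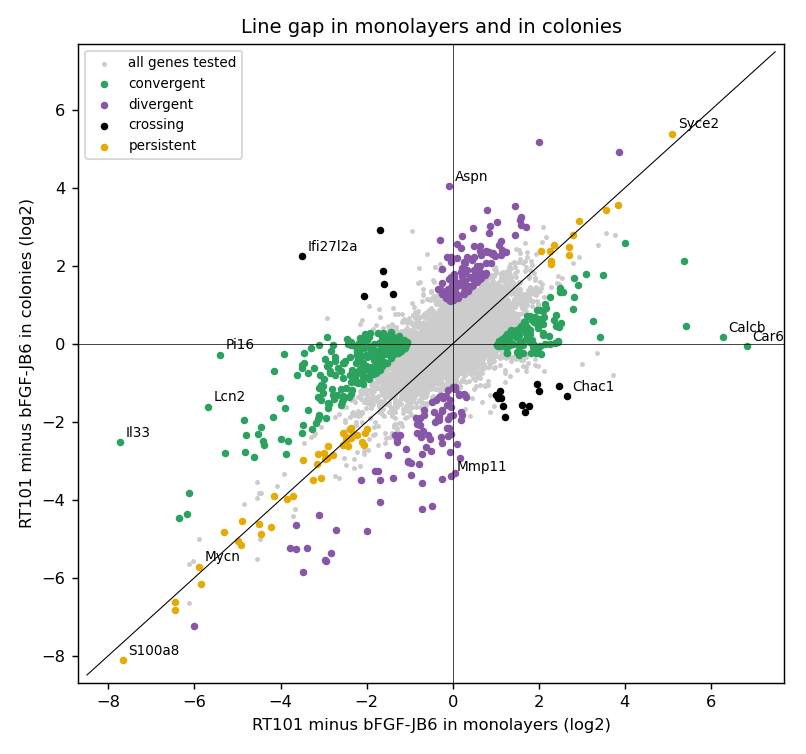
Line gap (RT101 minus bFGF-JB6, log2) in monolayers (horizontal axis) against the gap in colonies (vertical axis), 1 point per gene for 12393 genes, with the diagonal of equal gaps. Of the 364 convergent genes 298 lie within 1 unit of the horizontal line at 0 and the others farther off, the 210 divergent genes lie away from it, the 19 crossing genes in the upper left and lower right quadrants, and the 54 persistent genes along the diagonal.

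In some convergent genes RT101 gave up a high monolayer level. Car6, a secreted carbonic anhydrase, read 4.03, 4.07 and 4.14 in bFGF-JB6 monolayers, 3.72, 3.99 and 4.24 in bFGF-JB6 colonies, 10.97 and 10.85 in RT101 monolayers and 3.89, 3.94 and 3.96 in RT101 colonies. Only RT101 monolayers were high, and the other 3 groups overlapped near the bottom of the scale. The gap went from 6.84 to -0.053 (interaction -6.89, SE 0.17, adjusted p = 4.09e-11). Calcb, a calcitonin gene-related peptide, went from a gap of 6.29 to 0.18, the pentraxin gene Ptx3 from 5.42 to 0.46, and Dach2, a transcriptional cofactor gene, from 5.39 to 2.12. In 14 convergent genes both lines lay below the lower quartile in colonies, where a gap can hardly be seen.

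In others RT101 rose toward the bFGF-JB6 level. Pi16, a secreted peptidase inhibitor of fibroblasts, read 9.65, 9.52 and 9.63 in the monolayers and 9.0, 8.92 and 9.32 in the colonies of bFGF-JB6, against 4.17 and 4.23 and then 8.86, 8.74 and 8.8 in RT101. RT101 monolayers were low and RT101 colonies lay just under the bFGF-JB6 colonies, with a gap of -0.28 against -5.4 in monolayers (interaction 5.12, SE 0.15, adjusted p = 1.31e-10). Lcn2, a lipocalin that binds bacterial iron carriers, closed from -5.68 to -1.61, Synpo, an actin-associated protein gene, from -3.46 to -0.23, and the phosphodiesterase gene Pde4b from -3.51 to -0.55. F3, tissue factor, took the opposite course, with 4.56, 4.65 and 4.6 in bFGF-JB6 monolayers, 7.49, 7.33 and 7.41 in bFGF-JB6 colonies, 7.89 and 8.16 in RT101 monolayers and 7.53, 7.59 and 7.62 in RT101 colonies. There bFGF-JB6 rose to just under the RT101 colonies, without overlap, and the gap went from 3.42 to 0.17 (interaction -3.25, SE 0.13, adjusted p = 1.85e-09).

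The cytokine genes Il33 and Ccl7 fell in bFGF-JB6 and rose in RT101. Ccl7, a monocyte chemokine, read 11.44, 11.67 and 11.81 in the monolayers and 10.16, 9.99 and 9.77 in the colonies of bFGF-JB6, against 8.17 and 8.51 and then 9.93, 9.85 and 9.83 in RT101. It fell by 1.67 in bFGF-JB6 (adjusted p = 3.42e-07) and rose by 1.53 in RT101 (adjusted p = 1.54e-06), and the colony arrays of both lines overlapped. Its average effect was -0.068 (adjusted p = 0.635), so a test of the average alone would pass it over. Il33, a nuclear alarmin of epithelia, had gaps of -7.73 in monolayers and -2.53 in colonies. It fell by 4.8 in bFGF-JB6, while in RT101 it rose by 0.4 (adjusted p = 0.0183) at signals that stayed below the lower quartile.

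Interferon-stimulated genes, whose products block viral replication, held the most convergent genes of the 30 lists. Of 21 measured members 16 had a positive interaction and 2 a negative one (15% and 12.7% of all genes), and 12 converged (2.94%). On average 12 fell and 5 rose (18.4% and 18.1% of all genes). The median gap went from -1.94 in monolayers to -0.28 in colonies. Oas2, an activator of RNA decay, read 8.66, 8.7 and 8.78 in bFGF-JB6 monolayers, 5.4, 5.49 and 5.7 in bFGF-JB6 colonies, 5.84 and 5.36 in RT101 monolayers and 5.38, 5.58 and 5.57 in RT101 colonies. bFGF-JB6 monolayers stood apart and the other groups overlapped (gap -3.11, then -0.021; interaction 3.09, SE 0.18, adjusted p = 5.35e-08). Oasl2 closed from -4.16 to -0.7, Rtp4 from -3.92 to -0.26 and Oas1a from -3.08 to -0.79. Oas genes resemble one another closely, and a probe set may pick up several. When the dimmer genes, those under the median level, were left out, 6 members had a positive interaction, 6 an average decrease and 3 convergence. Of 19 promoters matched to this list, from 250 bases before to 50 after the start, 9 (47.4%) held the interferon-stimulated response element on either strand, against 3.14% of the 12559 promoters of genes tested. The list was named for its pathway, so this share describes the list and not the colony changes. Of promoters of all convergent genes, which include 12 members of the list, 7.44% held the element. The promoter of Oas1a is shown as an example, from RefSeq in GRCm38.p6, chr5:120907476-120907775 on the minus strand, with 2 overlapping matches in capitals.
Oas1a: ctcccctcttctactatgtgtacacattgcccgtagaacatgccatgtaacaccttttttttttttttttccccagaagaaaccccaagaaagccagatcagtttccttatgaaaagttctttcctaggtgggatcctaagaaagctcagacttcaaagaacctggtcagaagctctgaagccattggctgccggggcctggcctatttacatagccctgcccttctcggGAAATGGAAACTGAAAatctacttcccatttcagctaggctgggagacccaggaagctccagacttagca

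ATF4 targets, which this factor switches on when amino acids run short, moved mainly in RT101, with a median change of -1.41 there and 0.27 in bFGF-JB6. Of 24 members 22 had a negative interaction (12.7% of all genes), and 17 fell on average and 1 rose (18.4% and 18.1%). Of them 6 converged, 2 diverged and 3 crossed (2.94%, 1.69% and 0.153% of all genes). The median gap was 1.38 in monolayers and -0.35 in colonies. Trib3, a pseudokinase that restrains ATF4, read 6.89, 6.83 and 6.84 in the monolayers and 7.3, 7.31 and 7.23 in the colonies of bFGF-JB6, against 9.27 and 9.38 and then 6.22, 6.18 and 6.19 in RT101. RT101 was the higher line on every monolayer array and the lower on every colony array (gap 2.47, then -1.08; interaction -3.55, SE 0.11, adjusted p = 1.76e-10). Chac1, which degrades glutathione, crossed from 2.66 to -1.34, and Slc7a11, the cystine importer, from 1.67 to -1.75. Cth, an enzyme of cysteine synthesis, went from 3.72 to -0.79. Of 24 promoters of the list 7 (29.2%) held the letters TGATGNAAN on either strand, a form of the element that ATF4 and its partners bind, against 2.57% of promoters of genes tested. This share likewise describes a list named for its pathway. Of promoters of all convergent, divergent and crossing genes 3.85%, 4.5% and 20.0% (4 of 20) held the letters. These classes include the 6, 2 and 3 members of the list given above, with Chac1 and Trib3 among the crossing genes. The shares of the classes are therefore not separate from that of the list. The letters are shown in capitals in the promoters of Chac1 (chr2:119350992-119351291, plus strand) and Trib3 (chr2:152344011-152344310, minus strand), both crossing genes, from RefSeq in GRCm38.p6.
Chac1: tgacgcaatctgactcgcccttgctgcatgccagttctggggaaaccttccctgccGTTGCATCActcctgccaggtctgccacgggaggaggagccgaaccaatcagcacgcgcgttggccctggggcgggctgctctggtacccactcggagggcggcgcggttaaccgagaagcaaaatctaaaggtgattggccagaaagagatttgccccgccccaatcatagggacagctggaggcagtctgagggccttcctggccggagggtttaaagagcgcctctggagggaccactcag
Trib3: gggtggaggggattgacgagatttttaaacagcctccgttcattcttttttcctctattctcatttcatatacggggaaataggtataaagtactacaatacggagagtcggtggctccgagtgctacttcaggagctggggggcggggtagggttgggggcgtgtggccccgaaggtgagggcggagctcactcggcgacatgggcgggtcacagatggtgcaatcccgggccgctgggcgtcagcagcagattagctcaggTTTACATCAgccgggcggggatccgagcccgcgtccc

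Targets of YAP and TEAD fall silent when cells lose tension. Of 16 members 9 fell on average and 2 rose (18.4% and 18.1% of all genes), 8 had a negative interaction and 1 a positive one (12.7% and 15%), and 5 converged (2.94%). The mitotic gene Birc5, also on this list, diverged, and 7 members had no called interaction. Ankrd1, a stretch-responsive muscle and stromal gene, read 5.35, 5.38 and 5.09 in bFGF-JB6 monolayers, 3.76, 4.08 and 4.37 in bFGF-JB6 colonies, 7.63 and 7.83 in RT101 monolayers and 4.01, 4.15 and 4.18 in RT101 colonies. Both lines fell and met in colonies, where their arrays overlapped (gap 2.46, then 0.042; interaction -2.42, SE 0.21, adjusted p = 1.16e-06). Ajuba, a LIM protein of cell junctions, closed from 2.41 to 0.46, and Amotl2, an inhibitor of YAP and its target, from 2.1 to 0.28. F3, described above, is a member that went the other way in bFGF-JB6. With genes under the median level left out, 5 members fell on average and 3 had a negative interaction. Of 14 promoters of the list 8 (57.1%) held GGAATG, the core of the TEAD site, on either strand, against 13.1% of all. Since the list was named for this pathway, the share describes the list and not the colony changes. Of promoters of all convergent genes, which include 5 members of the list, 19.2% held GGAATG. The matches are in capitals in Ankrd1 (chr19:36119795-36120094) and Ajuba (chr14:54577612-54577911), both on the minus strand, from RefSeq in GRCm38.p6; in Ajuba the letters lie on the opposite strand.
Ankrd1: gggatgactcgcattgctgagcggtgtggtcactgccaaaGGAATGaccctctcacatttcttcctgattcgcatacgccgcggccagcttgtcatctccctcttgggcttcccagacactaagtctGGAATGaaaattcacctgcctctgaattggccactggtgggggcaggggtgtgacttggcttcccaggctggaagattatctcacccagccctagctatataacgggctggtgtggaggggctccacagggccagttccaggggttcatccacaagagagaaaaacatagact
Ajuba: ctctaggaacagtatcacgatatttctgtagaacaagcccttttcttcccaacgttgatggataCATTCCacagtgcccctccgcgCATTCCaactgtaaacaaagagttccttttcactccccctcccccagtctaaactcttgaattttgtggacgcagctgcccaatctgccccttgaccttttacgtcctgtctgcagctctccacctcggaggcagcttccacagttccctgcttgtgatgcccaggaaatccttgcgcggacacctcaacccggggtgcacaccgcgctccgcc

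Ribosome biogenesis and immediate early genes showed a mixture of a shared fall and a closing gap. Of 24 ribosome biogenesis genes 23 fell on average (18.4% of all genes) and none rose, and 15 had a negative interaction (12.7% of all genes). The median change was -0.25 in bFGF-JB6 and -0.86 in RT101, and the median gap went from 1 to 0.31. Nop56 and Nop58, core proteins of the particles that methylate ribosomal RNA, averaged -0.94 and -0.84, and Heatr1, a factor of ribosomal RNA transcription, converged from 1.36 to 0.021. Of 22 ERK and immediate early genes 14 fell on average and 2 rose (18.4% and 18.1% of all genes), 12 had a positive interaction and 2 a negative one (15% and 12.7%), and 4 converged (2.94%). Fos read 8.16, 8.11 and 8.2 in the monolayers and 6.83, 6.76 and 6.86 in the colonies of bFGF-JB6, against 6.05 and 5.97 and then 6.96, 6.9 and 7.02 in RT101. It fell by 1.34 in bFGF-JB6 (adjusted p = 2.95e-08) and rose by 0.95 in RT101 (adjusted p = 1.47e-06), which brought the gap from -2.15 to 0.14. Ccnd1, cyclin D1, read 12.02, 11.94 and 12.1 in bFGF-JB6 monolayers, 10.61, 10.41 and 9.99 in bFGF-JB6 colonies, 10.43 and 10.63 in RT101 monolayers and 10.34, 10.14 and 10.09 in RT101 colonies. Its gap went from -1.49 to -0.15, with a fall of 1.68 in bFGF-JB6 (adjusted p = 6.95e-07) and a change of -0.34 in RT101 (adjusted p = 0.109). Myc fell in both lines, more in RT101, and its gap closed from 1.74 to 0.715.

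Members of several other lists converged as well. Id1 and Id2, inhibitors of helix-loop-helix transcription factors, closed from -2.27 to -0.061 and from -1.6 to -0.27. Of their list of 17 genes 7 had a positive interaction and none a negative one (15% and 12.7% of all genes). Rbl2, a pocket protein of quiescent cells, and Ccng2, a cyclin of arrested cells, closed from -1.43 to -0.17 and from -2.54 to -1.33. Nqo1, a quinone reductase, closed from -1.65 to 0.19, and the desaturase gene Scd1 from -2.16 to -0.4. In the protease list Mmp1a, which has close relatives, closed from -3.5 to -0.61, and Btg2, an antiproliferative p53 target, from -2.87 to -0.53.

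**Figure D4:**
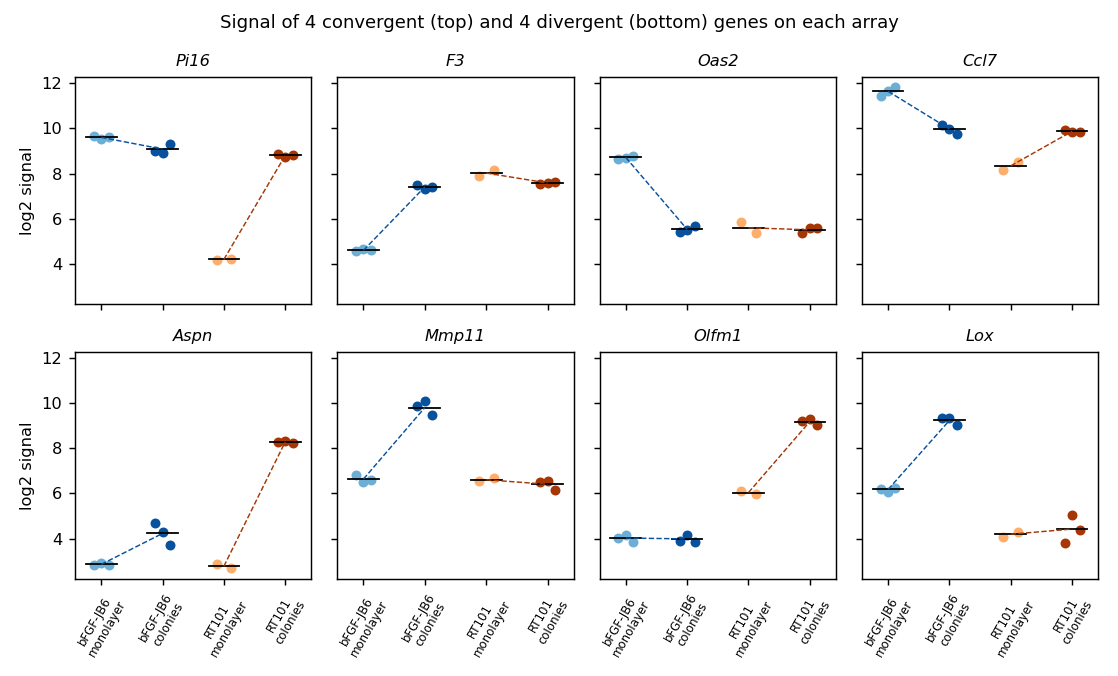
Log2 signal of 4 convergent genes (top) and 4 divergent genes (bottom) on each array, with 1 point per array, a bar at each group mean and a dashed line from monolayer to colonies within a line. The colony points of the lines meet at a similar height in the top row and stand apart in the bottom row.

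Divergent genes started closer and parted in agar. Their median gap went from 0.333 to 1.93, and in 107 of the 210 no gap was called in monolayers. bFGF-JB6 alone moved in 91 (48 up, 43 down), RT101 alone in 37 (29 up, 8 down), the lines moved in opposite directions in 59, and both moved the same way by unequal steps in 23. RT101 was the higher line in colonies for 120 and bFGF-JB6 for 90. In 43 of them at least 1 line lay below the lower quartile in monolayers, a level at which RMA compresses differences.

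Several of the named divergent genes encode matrix proteins or proteases. Aspn, asporin, a small leucine-rich proteoglycan, read 2.82, 2.92 and 2.83 in the monolayers and 4.7, 4.27 and 3.71 in the colonies of bFGF-JB6, against 2.87 and 2.68 and then 8.27, 8.32 and 8.25 in RT101. It was near the bottom of the scale in both monolayers and rose far more in RT101 (gap -0.084, then 4.06; interaction 4.14, SE 0.27, adjusted p = 1.03e-07). Mmp11, stromelysin 3, read 6.82, 6.5 and 6.59 in bFGF-JB6 monolayers, 9.86, 10.07 and 9.47 in bFGF-JB6 colonies, 6.54 and 6.66 in RT101 monolayers and 6.52, 6.56 and 6.13 in RT101 colonies. Only bFGF-JB6 colonies stood apart, and the gap went from -0.032 to -3.4 (interaction -3.36, SE 0.23, adjusted p = 1.68e-07). Lox, which cross-links collagen, went from -1.98 to -4.81, and Mmp13, a collagenase, from -2.95 to -5.57. Olfm1, a secreted olfactomedin, parted the other way through RT101 alone, with 4.04, 4.17 and 3.86 in the monolayers and 3.91, 4.18 and 3.87 in the colonies of bFGF-JB6, against 6.09 and 5.98 and then 9.21, 9.29 and 9.04 in RT101. Its gap grew from 2.01 to 5.19.

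Further large divergences came mainly from a rise in bFGF-JB6 colonies. Slc40a1, the iron exporter, went from a gap of -0.72 to -4.24, the protease inhibitor gene Serpina3n from 0.05 to -3.32, Aspa, which splits N-acetylaspartate, from -0.71 to -3.58, and Tmem268 from 0.17 to -2.92. Gsta3, Klra17 and Pcdhb9 belong to families with near-identical members, and their gaps of -4.17, -3.47 and -2.79 in colonies may include signal of relatives. Myzap, a junction protein gene, grew from 0.8 to 3.45 through RT101.

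Genes of mitosis parted as a list. All 22 measured members fell on average (18.4% of all genes fell) with a median of -0.51, but 19 had a positive interaction (15% of all genes) and none a negative one. The median change was -1.17 in bFGF-JB6 and -0.02 in RT101. RT101 was called higher for 11 of the 22 in monolayers and for 22 of 22 in colonies. Of all 12393 genes RT101 was called higher for 2881 in monolayers and 2809 in colonies. The median gap of the list grew from 0.26 to 1.90. So the fall of the average was carried mostly by bFGF-JB6. Aurkb, a kinase of chromosome segregation, read 7.91, 7.79 and 7.87 in bFGF-JB6 monolayers, 6.07, 6.1 and 5.82 in bFGF-JB6 colonies, 7.85 and 7.8 in RT101 monolayers and 8.23, 8.3 and 8.16 in RT101 colonies. The monolayer arrays overlapped and the colony arrays did not (gap -0.033, then 2.24; interaction 2.27, SE 0.14, adjusted p = 5.35e-08). Ccnb2, a mitotic cyclin, turned from -0.3 to 2.06, a reversal too small in monolayers for the crossing class. Cenpe, a kinetochore motor, fell in both lines, by 2.24 and 0.71.

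Of 19 mitosis promoters 15 (78.9%) held TTTGAA, the cell cycle homology region through which such genes are held silent outside division, and 17 (89.5%) held CCAAT, on either strand, against 12.9% and 37.1% of all. The list was named for its function, so these shares describe the list and not the colony changes. Of promoters of all divergent genes, which include 9 members of the list, 17.0% held TTTGAA and 46.0% CCAAT. The promoter of Ccnb2 (chr9:70421505-70421804, minus strand, RefSeq, GRCm38.p6) is given with TTTGAA in capitals.
Ccnb2: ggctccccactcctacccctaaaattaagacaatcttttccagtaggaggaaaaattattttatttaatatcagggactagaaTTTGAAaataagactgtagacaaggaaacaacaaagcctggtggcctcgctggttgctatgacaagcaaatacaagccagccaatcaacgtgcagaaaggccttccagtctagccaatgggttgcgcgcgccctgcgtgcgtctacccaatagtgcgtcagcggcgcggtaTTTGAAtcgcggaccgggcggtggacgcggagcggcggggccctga

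DNA replication and sterol genes parted in the same direction. Of 21 replication genes 16 fell on average and none rose (18.4% and 18.1% of all genes). A positive interaction was called for 12 and a negative one for none (15% and 12.7%), and the median gap grew from 0.20 to 0.84. Rrm2, a ribonucleotide reductase subunit, diverged from 0.039 to 1.34, and the thymidine kinase gene Tk1 went from -0.29 to 1.89. Pole, the leading-strand polymerase, fell in both lines, by 1.07 and 0.91 (interaction 0.16, interval -0.14 to 0.46). All 16 measured cholesterol synthesis genes had a positive interaction, and 10 rose on average and none fell. Of them 6 diverged and 1 converged (1.69% and 2.94% of all genes). Their median change was -0.35 in bFGF-JB6 and 0.96 in RT101, and the median gap grew from 0.39 to 1.65. Idi1, which isomerises isoprenoid units, read 7.54, 7.26 and 7.28 in the monolayers and 6.73, 6.6 and 6.7 in the colonies of bFGF-JB6, against 7.73 and 7.94 and then 9.59, 9.66 and 9.7 in RT101. It fell in bFGF-JB6 (-0.68, adjusted p = 0.000109) and rose in RT101 (1.81, adjusted p = 3.01e-08), with no overlap of the colony arrays. Nsdhl rose in RT101 alone (1.67 against 0.013). Of 15 promoters of the list 12 (80%) held CCAAT, against 37.1% of all. The list was named for its pathway, so this share describes the list and not the colony changes. The SREBP element was searched in a single exact form, which 0.0478% of all promoters held. Its count of 0 among the 15 therefore says nothing about the list.

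**Figure D5:**
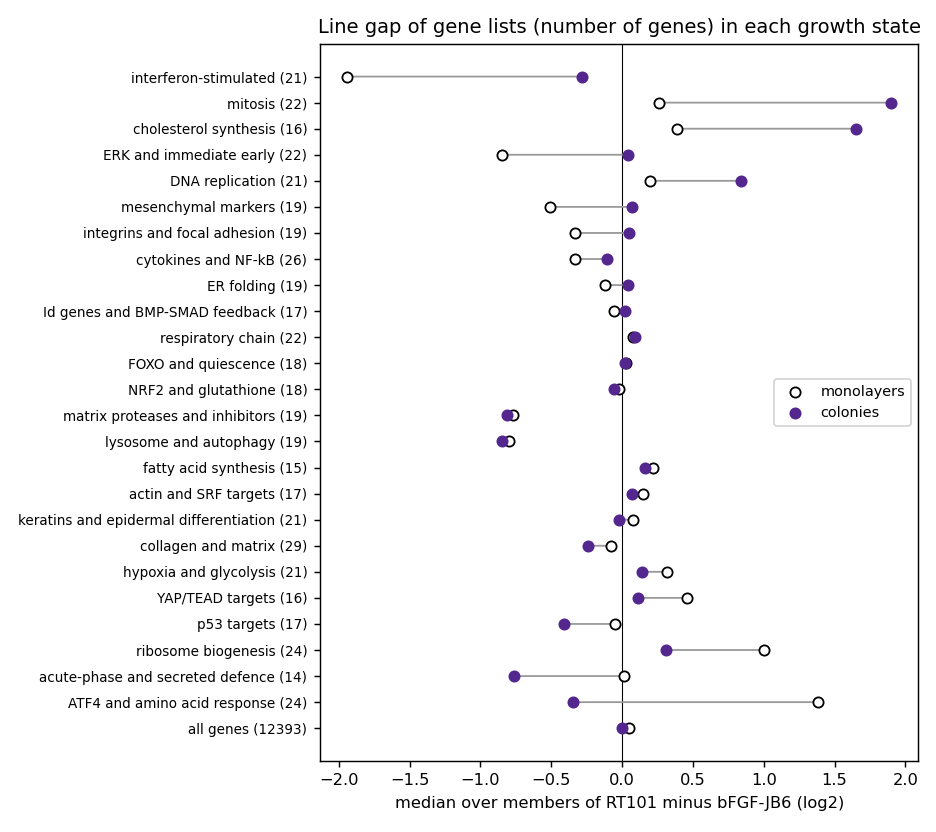
Median line gap (RT101 minus bFGF-JB6, log2) of each gene list in monolayers (open circles) and in colonies (filled circles), with the number of measured genes in brackets. Interferon-stimulated genes moved from -1.94 to -0.28, ATF4 genes from 1.38 to -0.35, mitosis genes from 0.26 to 1.90 and cholesterol synthesis genes from 0.39 to 1.65, while the median of all genes stayed near 0.

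A few genes reversed. In 19 genes (0.153% of genes tested) the gap was at least 1 in both states with opposite signs, with RT101 higher in monolayers for 13. Ifi27l2a, an interferon-induced mitochondrial protein, read 8.67, 8.49 and 8.55 in bFGF-JB6 monolayers, 5.12, 4.67 and 4.74 in bFGF-JB6 colonies, 5.08 and 5.06 in RT101 monolayers and 7.08, 7.05 and 7.16 in RT101 colonies. It had the largest positive interaction of all genes (5.75, SE 0.16, adjusted p = 1.01e-10). Tslp, a cytokine of barrier epithelia, crossed from -1.68 to 2.92 through a fall in bFGF-JB6, Cxcl12 from 1.97 to -1.02 through its larger rise there, and Prxl2a from -1.62 to 1.87 through RT101. The gelatinase gene Mmp9 crossed from -1.6 to 1.54, and Snai2, a repressor of E-cadherin, from 1.12 to -1.38.

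In 19 genes (0.153%) the colony changes themselves were opposite and at least 1 in both lines, 7 up in bFGF-JB6 and 12 up in RT101. Gadd45a, a growth-arrest gene, read 8.06, 8.15 and 8.08 in the monolayers and 10.05, 9.94 and 9.9 in the colonies of bFGF-JB6, against 9.8 and 9.93 and then 8.43, 8.36 and 8.27 in RT101. It rose by 1.87 in bFGF-JB6 (adjusted p = 2.09e-09) and fell by 1.51 in RT101 (adjusted p = 4.22e-08), so that the lines exchanged places. Ndrg1, a stress-induced gene, changed by 1.35 and -1.21, Mdfic by 1.07 and -1.26, and Slc6a9, a glycine transporter, by 1.04 and -1.41. Among those up in RT101, Tnc, the matrix protein tenascin C, read 8.01, 7.71 and 7.84 in bFGF-JB6 monolayers, 6.57, 6.64 and 6.61 in bFGF-JB6 colonies, 5.01 and 5.14 in RT101 monolayers and 6.55, 6.57 and 6.66 in RT101 colonies. Its colony arrays overlapped between the lines, and its average effect was 0.14 (adjusted p = 0.145). Btc, an EGF receptor ligand, changed by -1.63 and 1.32, Cdc42ep5 by -1.16 and 1.23, and Mgst3, a microsomal glutathione transferase with relatives, by -1.23 and 2.37.

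Other line gaps were of similar size on plastic and in agar. In 54 genes (0.436% of genes tested) the gap was at least 2 with the same sign in both states, the interaction was not called and its interval lay within -1 to 1. Of these, bFGF-JB6 was higher in 42 and RT101 in 12, and in 24 no colony change was called in either line. In 20 of the 54 the lower line lay below the lower quartile in both states, so these gaps are read against values near the bottom of the scale. With genes under the median level left out, 20 genes met these criteria. S100a8, a calcium-binding alarmin, read 11.22, 11.32 and 11.17 in the monolayers and 11.49, 11.69 and 11.66 in the colonies of bFGF-JB6, against 3.67 and 3.46 and then 3.44, 3.32 and 3.73 in RT101. bFGF-JB6 was far above RT101 on every array, and every RT101 array lay below the lower quartile, with gaps of -7.67 and -8.12 (interaction -0.45, adjusted p = 0.061; 0.0159 without RT101 colonies replicate 3 and 0.043 without bFGF-JB6 colonies replicate 1). Mycn, an oncogenic relative of Myc, had gaps of -5.89 and -5.72, the mesenchymal cadherin gene Cdh11 -6.45 and -6.82, and Aldh3a1, an aldehyde dehydrogenase, -6.45 and -6.62. Ctsz, a cathepsin, and Csf3, the granulocyte growth factor, had gaps of -6.15 and -4.84 in colonies, and single omissions gave each an interaction call (Ctsz without bFGF-JB6 colonies replicate 3, Csf3 without bFGF-JB6 colonies replicate 2 or RT101 colonies replicate 1). With all probe sets tested separately, the other Ctsz probe sets had called interactions of -0.76 and -0.66 (limma adjusted p = 0.0372 and 0.0184). For Ctsz the persistence thus held only for the brightest probe set. Syce2, a gene of meiotic chromosomes, stood higher in RT101, with 3.97, 3.9 and 3.83 in bFGF-JB6 monolayers, 3.84, 3.82 and 3.79 in bFGF-JB6 colonies, 9.02 and 9.01 in RT101 monolayers and 9.19, 9.17 and 9.27 in RT101 colonies. Its gaps were 5.11 and 5.39, with all bFGF-JB6 arrays below the lower quartile. Adm, adrenomedullin, had gaps of 3.84 and 3.58, Bnc1, an epithelial zinc finger gene, 3.56 and 3.44, and Ptger4, a prostaglandin receptor, 2.93 and 3.17. Another Ptger4 probe set had a called interaction of 0.81 (limma adjusted p = 0.000708). Npepl1 (2.79 in colonies) and Pkia (2.49) were the others named.

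Lysosome and autophagy genes mostly rose on average. Of 19 members 17 rose (18.1% of all genes) and none fell, with median changes of 0.66 in bFGF-JB6 and 0.53 in RT101. The interaction was positive for 3 and negative for 6 (15% and 12.7% of all genes) and not called for the others. In the list 1 member diverged (1.69% of all genes). The median gap was -0.80 in monolayers and -0.85 in colonies. Gaa, acid alpha-glucosidase, averaged 1.21 (SE 0.11, adjusted p = 1.09e-06), with an interaction of -0.54 (adjusted p = 0.0798; 0.00496 without bFGF-JB6 colonies replicate 3 and 0.0421 without bFGF-JB6 monolayer replicate 1, and 0.0481 with a block by the letter in the labels). Without both arrays of raised 3' signal the Gaa interaction was -0.83 (limma adjusted p = 0.00102), and it was called in 8 of the settings run. Neu1, the lysosomal sialidase, read 7.85, 7.68 and 7.81 in the monolayers and 8.89, 8.89 and 8.6 in the colonies of bFGF-JB6, against 6.66 and 6.73 and then 7.67, 7.41 and 7.49 in RT101. It rose by 1.02 and 0.83 (interaction -0.19, interval -0.52 to 0.14). Other probe sets of Neu1 had average effects of 0 and 0.1, which were not called (limma adjusted p = 0.994 and 0.421). Gabarapl1, an autophagosome protein, rose by 1.15 and 0.52 (interaction adjusted p = 0.00124), and Atp6v1h, a subunit of the proton pump, diverged through bFGF-JB6.

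The counts of the remaining lists stand against 18.1% of all genes that rose and 18.4% that fell. Of 29 collagen and matrix genes 20 rose on average and 1 fell. Of them 2 were common increases, 5 converged and 4 diverged (0.331%, 2.94% and 1.69% of all genes). Of 18 NRF2 and glutathione genes 10 rose and 3 fell, and of 14 acute-phase and secreted defence genes 9 rose and 1 fell (5 rose with the dimmer genes left out). Fatty acid synthesis genes had 8 increases and no decrease among 15, with Elovl6, an elongase, at 0.88 and 1.02. The 19 ER folding genes had 9 up and 2 down, and of these Sel1l, a degradation adaptor, converged from 1.72 to 0.43. Cytokine and NF-kB genes (7 up, 5 down of 26), matrix proteases (7 and 7 of 19), integrins (4 and 6 of 19), hypoxia genes (6 and 4 of 21), FOXO genes (6 and 4 of 18), p53 targets (5 and 5 of 17) and Id and BMP feedback genes (5 and 4 of 17) had calls in both directions, and many of these counts lie near the shares of all genes. Actin and SRF targets had 2 up and 7 down of 17, with 4 down without RT101 monolayer replicate 1, and the respiratory chain had 2 and 3 of 22. Cav1, caveolin 1, diverged from 1.46 to 3.53, and Itga6, a laminin receptor chain, went from -0.74 to 0.43.

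Markers of other cell types are set against the same shares, 18.1% up and 18.4% down. Macrophage markers had 3 up and 1 down of 13, endothelial markers 2 up of 11, skeletal muscle markers 1 up and 1 down of 10. Limma called 0 of 7 adipocyte and 0 of 7 melanocyte markers, and 0 and 1 of them at an unadjusted p under 0.05. The mean over macrophage markers was 4.52 to 4.60 in bFGF-JB6 monolayers, 4.65 to 4.79 in bFGF-JB6 colonies, 4.25 to 4.31 in RT101 monolayers and 4.27 to 4.36 in RT101 colonies, with 5 to 7 of 13 below the lower quartile. Within them Cd68, also a lysosomal gene of other cells, diverged from -2.71 to -4.77, with a rise of 1.86 in bFGF-JB6. The adipocyte marker Fabp4 converged from -4.82 to -2.76. Their part in the results above was not tested.

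Genes of the FGF pathway itself were read in each group. Fgf2, which encodes bFGF, had group means of 3.89, 4.05, 3.66 and 5.17 in bFGF-JB6 monolayers, bFGF-JB6 colonies, RT101 monolayers and RT101 colonies, with an interaction of 1.35 (SE 0.31, adjusted p = 0.0047). All but the last lay below the lower quartile. The receptor gene Fgfr1 read 10.19, 9.74 and 9.71 in bFGF-JB6 monolayers, 11.44, 11.47 and 10.8 in bFGF-JB6 colonies, 7.38 and 7.44 in RT101 monolayers and 8.16, 8.08 and 8.13 in RT101 colonies. It rose on average by 1.04 (SE 0.12, adjusted p = 1.6e-05), and its interaction of -0.64 was not called (adjusted p = 0.0708) but was without bFGF-JB6 colonies replicate 3 (0.00274) or bFGF-JB6 monolayer replicate 1 (0.023), and with a block by the letter in the labels (0.0273). Without both arrays of raised 3' signal the Fgfr1 interaction was -1.01 (limma adjusted p = 5.11e-05). In all it was called in 8 of the settings run, median centring and cyclic loess among them. Cdkn1a, a cell cycle inhibitor, was higher in bFGF-JB6 by 1.91 in monolayers and 1.54 in colonies. The average effects of Cdkn1a (-0.088, adjusted p = 0.287), Vim (-0.095, adjusted p = 0.246) and Cdh1 (0.0083, adjusted p = 0.938) were not called.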

How the data were processed

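RNA from 11 samples was hybridised to 1 Affymetrix mouse array each. The deposited values are log2 signals made by the authors with RMA, per the submitters' processing notes, and no RMA version was given. RMA corrects background, sets all arrays to 1 distribution and summarises probes, which compresses differences near the bottom of the scale. Array medians were 6.192 to 6.343. The number of arrays limits the precision. RT101 monolayers had 2 arrays, so their means are the least certain.

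Of 22690 probe sets, 20380 named a single gene, 691 several and 1555 none. They were named through the platform annotation, and 20351 matched RefSeq (GRCm38.p6) by gene number. The probe set with the highest mean stood for each of 12393 genes, and 4956 genes had several. Control probe sets were left out. Probe sets of near-identical families (Oas, Gst, Mgst, Klra, Pcdhb, Slfn, Mmp1a) may read several genes.

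A limma 3.58.1 model (R 4.3.3) with a mean per group gave the average effect, the interaction, the line gap in each state and the colony change in each line, each Benjamini-Hochberg adjusted over all genes and called under 0.05. Errors are standard errors with 7 residual and 6.12 prior degrees of freedom, over 11 arrays. On simulated data of 12393 genes the fit recovered 78% of average effects and 10% of interactions of 0.5. It recovered 100% and 92% of those of 1.5 (50 genes each), with 6 and 1 false calls among the unchanged genes. Far fewer genes changed in the simulation than were called here, so its adjusted threshold was stricter. These shares are therefore not those of the real data. Figures used matplotlib 3.10.9 in Python 3.11.15.

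Genes were named by rank of effect within each class (15 common per direction, 14 convergent, 12 divergent, 6 crossing, 6 opposite and 6 persistent per direction), up to 3 and 2 per list for the average and the interaction, and Fgf2, Fgfr1, Ccnd1, Cdkn1a, Vim and Cdh1. The classes, members and 30 lists were chosen with earlier results of these data known. Genes with their symbols printed outside this rule were chosen after their values were seen. Alternatives changed the replicate block, probe set rule, level filter, scaling, variance model, weights, bounds and arrays included. List members without a named probe set were not analysed here.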

Additional observations from a re-analysis of the deposited data

Results flagged for a closer look

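The colony effect differed between the lines by a test of the difference itself, the limma interaction, in 1856 genes with a positive and 1574 with a negative value. A positive value means that the RT101 change lay above the bFGF-JB6 change. Among the genes named above, the called interactions (log2) are listed by size. The larger positive values were those of Ifi27l2a (5.75), Il33 (5.2), Pi16 (5.12), Tslp (4.6), Aspn (4.14), Lcn2 (4.07), Rtp4 (3.66), Mgst3 (3.6) and Prxl2a (3.5). Next in size came Oasl2 (3.46), Synpo (3.24), Ccl7 (3.2), Olfm1 (3.18), Mmp9 (3.14), Oas2 (3.09), Pde4b (2.96), Btc (2.95) and Mmp1a (2.89). After them stood Tnc (2.76), Myzap (2.65), Idi1 (2.5), Cdc42ep5 (2.39), Ccnb2 (2.36), Btg2 (2.34), Fos (2.29), Oas1a (2.29) and Aurkb (2.27). Smaller positive values were those of Id1 (2.21), Tk1 (2.18), Cav1 (2.07), Dpt (2.06), Fabp4 (2.05), Nqo1 (1.83), Ccl8 (1.81), Scd1 (1.76) and Nsdhl (1.65). Then came Cenpe (1.52), Fgf2 (1.35), Ccnd1 (1.34), Id2 (1.33), Rrm2 (1.3), Rbl2 (1.27), Ccng2 (1.21), Itga6 (1.17) and Mgp (0.87). The least were Hbegf (0.87), Sesn1 (0.81), Bhlhe40 (0.73), Vim (0.39) and Cdkn1a (0.37).

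The larger negative values were those of Car6 (-6.89), Calcb (-6.11), Ptx3 (-4.96), Cth (-4.52), Chac1 (-4.0), Gsta3 (-3.69), Trib3 (-3.55), Slc40a1 (-3.52) and Slc7a11 (-3.42). These were followed by Gadd45a (-3.38), Serpina3n (-3.37), Mmp11 (-3.36), Dach2 (-3.27), F3 (-3.25), Klra17 (-3.22), Tmem268 (-3.09), Cxcl12 (-2.99) and Aspa (-2.87). Behind them stood Lox (-2.83), Pcdhb9 (-2.73), Mmp13 (-2.62), Ndrg1 (-2.56), Snai2 (-2.51), Slc6a9 (-2.45), Ankrd1 (-2.42), Mdfic (-2.34) and Cd68 (-2.06). Smaller negative values were those of Ajuba (-1.95), Amotl2 (-1.82), Heatr1 (-1.34), Sel1l (-1.29), Myc (-1.03), Atp6v1h (-1.02), Nop58 (-0.87), Saa3 (-0.73) and Nop56 (-0.65). They were followed in turn by Gabarapl1 (-0.62) and Gstm1 (-0.52). Some other probe sets of Prxl2a, Mgst3, Cdc42ep5, Synpo, Lox, Id2, Fabp4, Sel1l, Sesn1, Gabarapl1 and Gstm1 had no called interaction. The calls of Vim and Cdkn1a were each lost in 7 settings, among them median centring, cyclic loess and several omissions of 1 array, with adjusted p up to 0.132 and 0.118. No group held more than 3 arrays, so no array was tested as standing apart from its group.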

How the results depend on the processing

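No called average effect or interaction of a named gene changed sign in a setting run, while values near 0 that were not called, such as the averages of Mycn, Cdc42ep5 and Cdh1, took either sign. There were more convergent than divergent genes and a smaller overall line gap in colonies in each setting that gave those values. When probe sets of each gene were averaged, 9 common genes fell and the overall gap was 0.715 in monolayers and 0.646 in colonies. With all probe sets tested separately, the average rose for 3639 and fell for 3895, the interaction was positive for 2802 and negative for 2458, 75 common probe sets rose and 41 fell, 604 converged, 379 diverged, 31 crossed, 36 changed oppositely, and the gap was 0.722 and 0.664. With the dimmer genes (under the median level) left out, 12 common genes fell, 120 diverged, 20 were persistent, and the gap was 0.895 and 0.781. Without both arrays of raised 3' signal the colony gap was 0.704. An additive fit without the interaction gave 1498 average increases and 1511 average decreases. A bound of 0.5 left 16 common increases and 1 decrease, and a required gap move of 2 left 63 convergent and 45 divergent genes. Leaving out 1 array gave 1934 to 2432 average increases, 1927 to 2502 decreases, 1461 to 1968 positive and 1205 to 1696 negative interactions, 38 to 47 and 16 to 21 common genes, 347 to 382 convergent, 207 to 230 divergent, 17 to 21 crossing, 18 to 22 opposite and 51 to 57 persistent genes, and gaps of 0.755 to 0.763 in monolayers and 0.682 to 0.703 in colonies. The highest colony gap came without bFGF-JB6 colonies replicate 3. Where these values moved the cause was not tested, except that separate probe sets, the level filter and the bounds change how many features can pass. The labels do not say that equal replicate numbers were paired, and 5 of 15 same-number pairs deviated together (r over 0.1) against 11 of 30 others, though all 3 pairs of colony arrays between the lines did (0.32, 0.111 and 0.225). By the letter in the labels it was 8 of 15 against 8 of 30. Neither numbering had every pair over 0.1, but deviations cancel out within a group, so that could hardly occur. These counts do not settle whether arrays were paired. With the replicate number as a block, 386 genes converged and 205 diverged, 40 common genes rose and 18 fell, and the gap was 0.766 and 0.687; a block by the letter in the labels gave 362 and 218. The median interaction over genes was -0.0416, -0.122 after median centring and 0.00427 after cyclic loess. Of 5404 gene values recomputed, 5278 stayed on the same side of the threshold. Low signals, where RMA compresses differences, limit what the arrays show for genes near the lower quartile.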
